A study of Mus musculus with 65 samples.

Results

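Spinal cord of 24-month-old C57BL/6 mice on an ad libitum (AL) diet was compared with that of 6-month-old AL mice, 20 of the 65 arrays in all. The mice were chosen by the diet and the age in days that the labels give. The older group held 10 mice of 704 to 743 days and the younger group 10 mice of 169 to 194 days, with 5 males and 5 females in each, and every mouse had free access to food. All mice came from 1 colony, were housed singly and were killed at a set time of day, and the labels name no treatment other than diet. Total RNA of each mouse was labelled with 33P by reverse transcription, as the labels have it (the study's methods name another isotope of phosphorus), and hybridized to the B filter of the NIA mouse 17K cDNA array, a nylon membrane of spotted cDNA clones that holds 8448 features. The other groups were AL juveniles of 17 to 44 days (10 mice), AL mice of 16 months (10 mice) and mice under caloric restriction (CR), whose food was reduced stepwise in young adulthood, of 6, 16 and 24 months (8, 10 and 7 mice).

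Each deposited value is a Z score, that is, the distance of a feature from the mean of its own array in units of the SD over the features of that array. A difference is therefore given in Z units and not as a fold, and a change shared by most features cannot be seen. One 6-month male, array 33, stood apart: its scores correlated at r = 0.740 with the median of the other 19 arrays, against 0.957 to 0.990 for those 19. The array numbers in the titles also form 2 blocks, called runs here although the labels do not name them: the second holds numbers 22 to 43, 66 and 67, and the first the rest. The first run held 4 of the 10 mice of 24 months and 8 of the 10 of 6 months, the second run 6 and 2, and 3870 of the 8448 features (45.8%) differed between the runs. The description of 1 array of 24 months (a male, array 27) did not match its title, and the title and characteristics were followed. Of the markers listed for the tissue, 3 of 12 for neurons, 1 of 9 for oligodendrocytes, 3 of 9 for astrocytes and 4 of 10 for microglia were on this filter. The neurofilament gene Nefl lay above 82.2% and 86.9% of features in mean Z at its 2 features. The other neuronal markers lay above 71.3% (Uchl1) and 38.4% (Slc17a6), and those of astrocytes above 7.42% (Clu) to 73.9% (Cst3). Since the tissue was measured in bulk, more cells of a type and more RNA per cell cannot be told apart.

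With age the spinal cord is known for activation of microglia, the resident macrophages, which engulf debris and break it down in lysosomes. Complement C1q, made mostly by microglia in the nervous system, tags synapses and debris for this uptake. Lysosomal proteases such as cathepsin D reach the lysosome as glycoproteins that are folded and trimmed in the endoplasmic reticulum, and vesicle traffic between these compartments is steered by Rab GTPases.

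Between the ages, 6 features of 5 genes passed the test (limma, Benjamini-Hochberg adjusted p under 0.05 over 8448 features), 0.071% of those tested, and all 6 were higher at 24 months. They were Ctsd (cathepsin D, a lysosomal aspartic protease, at 2 features), C1qa (the A chain of C1q), Ganab (the catalytic subunit of glucosidase II), Tbc1d8 (a predicted activator of Rab GTPase hydrolysis) and Hadha (the alpha subunit of the mitochondrial trifunctional protein of fatty acid oxidation). The rises were between 0.286 and 0.467 Z units, and at each of the 6 features 10 of 10 older mice exceeded the mean of the younger ones. In mean Z over the 20 mice, C1qa lay above 23.1% of features, Hadha above 38.0%, Ganab above 42.1% and Tbc1d8 above 47.8%. The mean Z of these genes was below 0, while the Ctsd features lay above 59.0% and 60.8% of features. The study's methods kept genes with an average intensity above 0, to set aside those of low signal. No feature passed in the lower direction with all mice. When 1 of the 20 mice was left out at a time, Tbc1d8 and Ganab passed in all 20 fits, and each of the other 4 features in 6 to 10 of them. In 5 of the 20 fits 1 to 3 features passed in the lower direction. At an unadjusted p under 0.05, 560 features were higher (6.63%) and 520 lower (6.16%). A second fit, called the run-adjusted fit here, had a term for the run and left array 33 out. In it 5 features passed (0.0592%), all of them among the 6, while 124 were higher (1.47%) and 78 lower (0.923%) at an unadjusted p under 0.05.

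Cathepsin D cleaves proteins in the acid lumen of the lysosome and is made by most cells, microglia and neurons included. Its feature 12575 had scores of 0.28 to 0.68 (median 0.385) at 24 months and of -1.17 to 0.16 (median 0.055) at 6 months. Its feature 12531 had scores of 0.35 to 0.64 (median 0.445) at 24 months and of -1.16 to 0.23 (median 0.125) at 6 months. At both features the ages did not overlap, and the lowest score of the younger mice belonged to array 33. Feature 12575 averaged 0.412 ± 0.111 in older mice and -0.047 ± 0.399 in younger mice (SD, n = 10 per age), a rise of 0.459 (SE 0.0955, limma adjusted p = 0.0353). Feature 12531 averaged 0.448 ± 0.0961 and 0.019 ± 0.420 at the same ages, a rise of 0.429 (SE 0.0941, limma adjusted p = 0.0414). Without array 33 the younger mice averaged 0.0778 ± 0.0648 and 0.15 ± 0.0737 (SD, n = 9), and the rises were 0.335 and 0.299. Run-adjusted, they were 0.393 (SE 0.0675, limma adjusted p = 7.17e-04) and 0.329 (SE 0.0657, limma adjusted p = 0.0108).

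C1qa had scores of -0.76 to -0.39 (median -0.48) at 24 months and of -1.33 to -0.62 (median -0.80) at 6 months. The ages overlapped, 7 of 10 older mice lying above the highest younger one. Its mean was -0.530 ± 0.133 at 24 months and -0.816 ± 0.205 at 6 months (SD, 10 mice per age), a rise of 0.286 (SE 0.0619, limma adjusted p = 0.0414). Of the 6 calls, this alone was lost without array 33, when the difference was 0.230 (limma adjusted p = 0.148). In the run-adjusted fit the difference was 0.254 (limma adjusted p = 0.0575). Other mice mattered as well, since C1qa passed in 6 of the 20 fits that left out 1 mouse. The genes of the other chains of C1q lie beside C1qa on chromosome 4 and were each read at 1 feature. In mean Z, C1qb lay above 69.4% of features and C1qc above 65.8%, against 23.1% for C1qa. C1qb had scores of 0.40 to 0.62 at 24 months and 0.29 to 0.49 at 6 months, a difference of 0.165 (SE 0.0541, limma adjusted p = 0.328) in which 8 of 10 older mice lay above all younger ones. C1qc had 0.23 to 0.63 and 0.11 to 0.51 at the same ages, a difference of 0.069 (SE 0.0465, limma adjusted p = 0.513). The run-adjusted differences were 0.0682 for C1qb and 0.0178 for C1qc.

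Ganab removes glucose residues from new glycoproteins and so admits them to the calnexin folding cycle. Its scores were -0.17 to 0.12 (median -0.06) at 24 months and -0.71 to -0.30 (median -0.345) at 6 months, without overlap. Its mean was -0.051 ± 0.0891 at 24 months and -0.382 ± 0.119 at 6 months (SD, 10 mice per age), a rise of 0.331 (SE 0.0506, limma adjusted p = 9.28e-05). Tbc1d8 had scores of -0.05 to 0.36 (median 0.05) at 24 months and of -0.58 to -0.15 (median -0.19) at 6 months, also without overlap. It averaged 0.083 ± 0.116 and -0.240 ± 0.131 (SD, 10 mice per age), a rise of 0.323 (SE 0.0478, limma adjusted p = 8.52e-05). These 2 genes had the smallest p-values of all features. In the run-adjusted fit the rises were 0.329 for Ganab (limma adjusted p = 2.17e-05) and 0.303 for Tbc1d8 (limma adjusted p = 7.73e-05).

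Hadha carries the hydratase and long-chain dehydrogenase steps of mitochondrial beta-oxidation. Its scores were -0.22 to 0.10 (median -0.065) at 24 months and -1.95 to -0.20 (median -0.375) at 6 months, and 8 of 10 older mice lay above the highest younger one. It averaged -0.077 ± 0.0941 and -0.544 ± 0.512 (SD, 10 mice per age), a rise of 0.467 (SE 0.102, limma adjusted p = 0.0414). Array 33, at -1.95, set the wide spread of the younger mice: without it they averaged -0.388 ± 0.142 (SD, n = 9), and the rise was 0.303 (limma adjusted p = 8.39e-04). In the run-adjusted fit it was 0.314 (limma adjusted p = 7.17e-04).

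**Figure D1:**
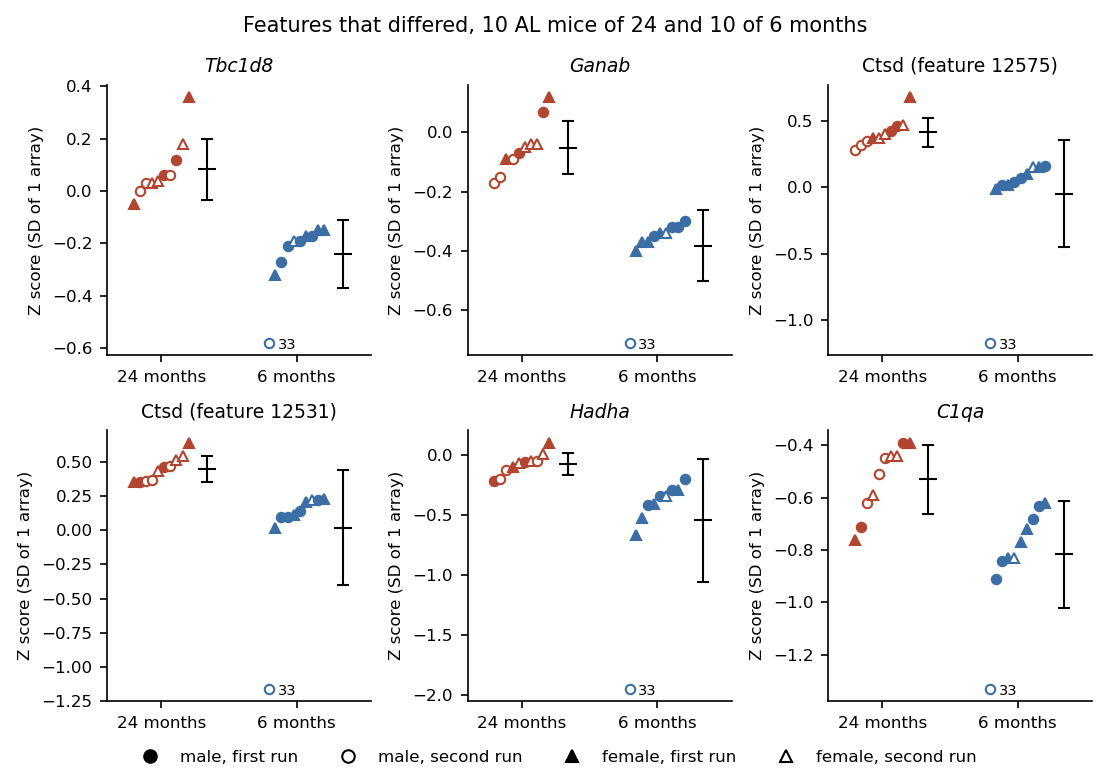
Z scores (y axis, in SDs of 1 array) of the 6 features that differed, with the 10 AL mice of 24 months on the left and the 10 of 6 months on the right of each panel, each point being 1 mouse sorted by its score, circles for males, triangles for females, filled for the first run and open for the second, and bars for the mean ± SD. The ages do not overlap for Tbc1d8, Ganab and both Ctsd features. Array 33 is the lowest younger mouse in every panel (-1.95 for Hadha), so leaving it out cannot change whether the ages overlap.

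The promoters of the called genes are shown because the genes rose together. Promoter entries of RefSeq (GRCm38.p6) matched 4 of the 5 genes, and the first is shown where a gene has 2. The 250 bases before the start are given below in the direction of the gene, with capitals for matches, on either strand, to CACGTG (E-box, the core of the element of lysosomal genes), GGGCGG (GC box) and CCAAT (the box named after it). GAGGAAGT (PU.1-type ETS site) and TGACTCA (AP-1 site) were searched too and had no match in these 4.
Ctsd, chr7:142387828-142388077, minus strand: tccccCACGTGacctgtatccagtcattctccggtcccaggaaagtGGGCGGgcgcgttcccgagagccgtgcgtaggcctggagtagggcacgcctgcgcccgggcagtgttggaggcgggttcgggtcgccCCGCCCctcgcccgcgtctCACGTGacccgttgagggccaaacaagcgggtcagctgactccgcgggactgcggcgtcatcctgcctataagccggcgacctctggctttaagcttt
Ganab, chr19:8897807-8898056, plus strand: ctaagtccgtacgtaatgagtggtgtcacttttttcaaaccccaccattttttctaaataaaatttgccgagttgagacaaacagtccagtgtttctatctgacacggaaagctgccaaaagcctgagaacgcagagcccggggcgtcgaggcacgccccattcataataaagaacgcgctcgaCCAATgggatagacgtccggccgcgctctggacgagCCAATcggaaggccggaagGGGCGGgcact
Tbc1d8, chr1:39478756-39479005, minus strand: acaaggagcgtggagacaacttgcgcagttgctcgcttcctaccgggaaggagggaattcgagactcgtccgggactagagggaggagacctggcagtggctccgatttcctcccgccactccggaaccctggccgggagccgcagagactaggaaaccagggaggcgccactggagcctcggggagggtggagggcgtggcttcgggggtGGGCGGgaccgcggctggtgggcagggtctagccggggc
Hadha, chr5:30154981-30155230, minus strand: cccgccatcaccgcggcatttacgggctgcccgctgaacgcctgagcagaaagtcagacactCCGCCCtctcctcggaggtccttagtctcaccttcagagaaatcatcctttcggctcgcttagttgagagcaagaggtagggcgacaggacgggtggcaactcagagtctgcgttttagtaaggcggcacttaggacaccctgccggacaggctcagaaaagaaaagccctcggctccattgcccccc

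The Ctsd promoter held CACGTG at 2 places, beginning 245 and 98 bases before the start. Of 32851 RefSeq promoter windows of this length, 6.02% held CACGTG and 0.429% held it at 2 or more places. The windows of Ganab, Tbc1d8 and Hadha did not hold it. GGGCGG was found in all 4 windows and in 32.7% of all windows. CCAAT was found in the window of Ganab alone among the 4, at 2 places. Of all windows, 33.8% held CCAAT and 10.1% held it at 2 or more places. Matches are letters in a window and were not tested as binding sites.

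At 16 months the 6 features lay near their level of 24 months. Ganab averaged -0.318 ± 0.0757 in juveniles, -0.382 ± 0.119 at 6 months, -0.081 ± 0.136 at 16 months and -0.051 ± 0.0891 at 24 months (SD, 10 mice per age). Tbc1d8 averaged -0.235 ± 0.0706, -0.240 ± 0.131, 0.027 ± 0.109 and 0.083 ± 0.116 at the same ages. Ctsd feature 12575 averaged 0.044 ± 0.0807, -0.047 ± 0.399, 0.370 ± 0.208 and 0.412 ± 0.111. The 10 mice of 16 months lay between -0.22 and 0.22 for Ganab, between -0.08 and 0.28 for Tbc1d8 and between 0.10 and 0.80 for Ctsd feature 12575, which at 24 months lay between 0.28 and 0.68 and at 6 months at 0.16 or below. C1qa averaged -0.551 ± 0.15 and Hadha -0.087 ± 0.126 at that age. Over 16 minus 6 months Tbc1d8 rose by 0.267 and Ganab by 0.301 (limma adjusted p = 0.00328 and 0.00169), while the other 4 features differed by 0.265 to 0.457 (limma adjusted p between 0.0827 and 0.0907). The difference of 24 minus 16 months was between 0.010 (Hadha) and 0.056 (Tbc1d8) over the 6 features, with limma adjusted p of 0.959 or more. Its 95% interval ran from -0.0399 to 0.152 for Tbc1d8, from -0.0714 to 0.131 for Ganab and from -0.195 to 0.215 for Hadha, so that changes of these sizes are not excluded. These differences share mice with the comparison of 24 and 6 months.

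**Figure D2:**
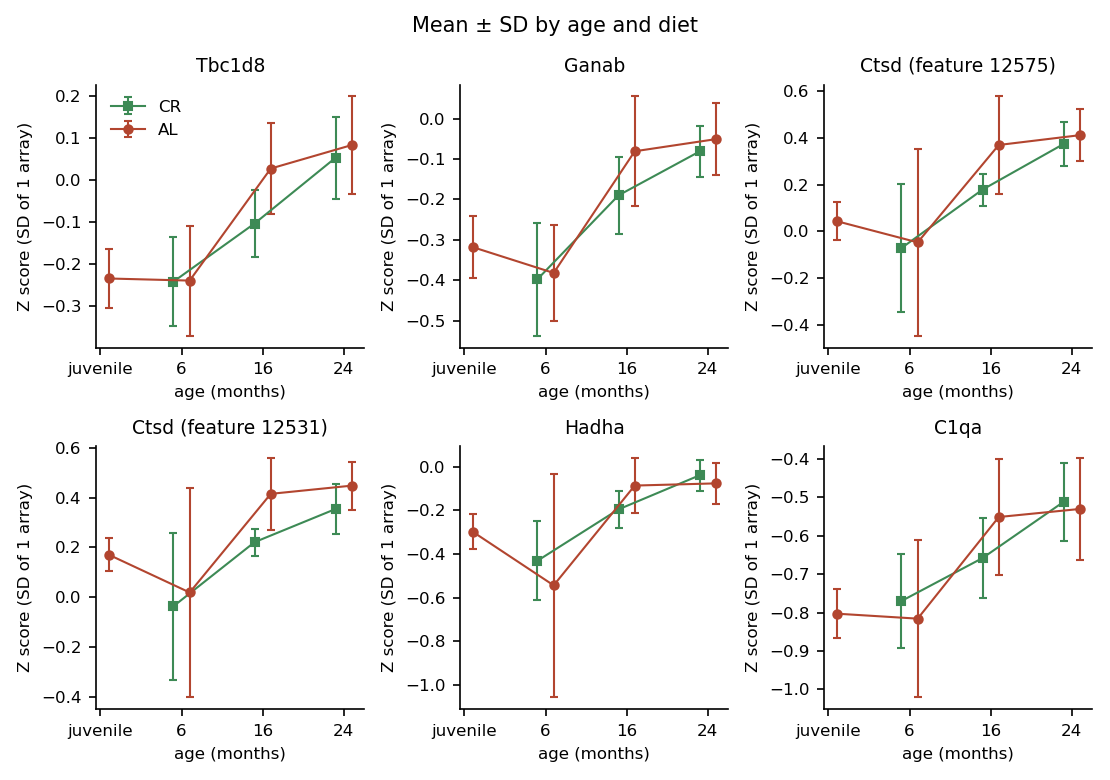
Mean Z score ± SD (y axis, in SDs of 1 array) of the 6 features in juvenile, 6-, 16- and 24-month-old mice (x axis), squares for CR and circles for AL mice, 7 to 10 mice per point, with no CR juveniles. AL means of 6 months lie below those of 16 and 24 months, which lie close together (Ganab -0.382, -0.081 and -0.051), and the wide bars at 6 months hold the outlying arrays.

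The ages of 24 and 6 months were also compared in CR mice, which are other animals than the 20 AL mice. The 7 older CR mice (3 males and 4 females) were 673 to 743 days old. The 3 males were all of 673 days, below the AL range of 704 to 743 days. The 8 younger CR mice (3 males and 5 females) were 174 to 194 days old. The part of these differences in age and sex was not tested. Over the 6 features, 24 minus 6 months in CR mice gave 0.306 for Tbc1d8, 0.316 for Ganab, 0.435 and 0.394 for Ctsd features 12575 and 12531, 0.258 for C1qa and 0.405 for Hadha. Tbc1d8 and Ganab passed there (limma adjusted p = 0.00944 for each). When the run term was added and arrays 31 to 33 were dropped (31 and 32 being CR mice of 6 months), Hadha (0.311) and Ctsd feature 12575 (0.329) passed too (limma adjusted p = 0.0130 and 0.0420). For the difference of the AL change minus the CR change, the limma fit called 0 features, with 132 at an unadjusted p under 0.05. That number was 873 without array 33 (smallest limma adjusted p 0.0768) and 768 with the run term and without arrays 31 to 33 (smallest 0.167). It was 0.017 for Tbc1d8 (95% interval -0.131 to 0.165), 0.0148 for Ganab (-0.142 to 0.172), 0.0242 for Ctsd feature 12575 (-0.272 to 0.321), 0.0283 for C1qa (-0.164 to 0.220) and 0.0622 for Hadha (-0.254 to 0.379).

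The 6 differences were positive in both sexes of the mice from which the features were called. In males and females they were 0.338 and 0.308 for Tbc1d8, 0.318 and 0.344 for Ganab, 0.542 and 0.376 for Ctsd feature 12575, 0.522 and 0.336 for Ctsd feature 12531, 0.342 and 0.230 for C1qa and 0.508 and 0.426 for Hadha. Array 33 is a male. Within 1 sex, 0 features passed in limma, with 1180 features at an unadjusted p under 0.05 in males and 89 in females. The male change minus the female change passed for 0 features in limma (96 at an unadjusted p under 0.05). For the 6 features it was between -0.026 (Ganab) and 0.186 (Ctsd feature 12531, 95% interval -0.191 to 0.563).

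Within the first run, in which 4 mice of 24 months stand against 8 of 6 months, the differences were 0.326 for Tbc1d8, 0.354 for Ganab, 0.414 and 0.309 for Ctsd features 12575 and 12531, 0.188 for C1qa and 0.324 for Hadha. Tbc1d8, Ganab and Ctsd feature 12575 passed within this run alone (limma adjusted p = 0.0433, 0.0184 and 0.0184). Within the second run without array 33, 6 mice of 24 months stand against 1 of 6 months, and the differences of the means were 0.247, 0.250, 0.215, 0.227, 0.322 and 0.258 in the same order. All 12 values are positive, and those of C1qa are the ones where the second run exceeds the first. The features were called from these same mice, and the second-run values share 1 younger mouse, so the common sign is no independent replication.

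**Figure D3:**
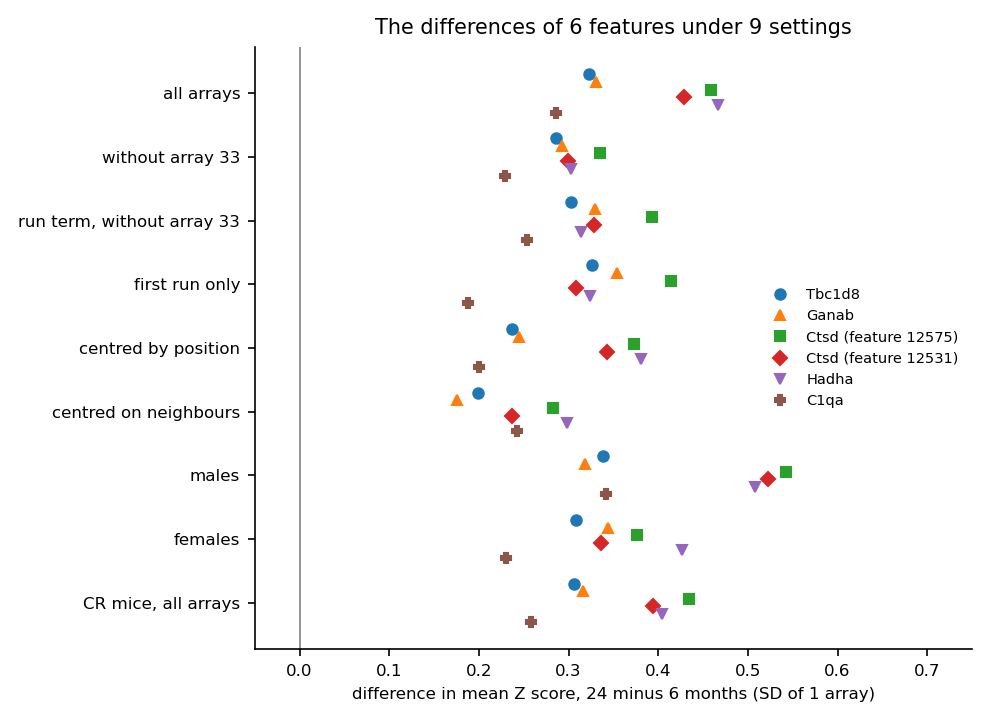
Difference in mean Z score, 24 minus 6 months (x axis, in SDs of 1 array), of the 6 features (symbols) with all arrays, under 7 other settings in AL mice, and in CR mice (rows). All points lie right of 0, the lowest being 0.176 for Ganab when each array is centred on neighbouring features.

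The 6 called features share a position. Features were numbered from 8449 to 16896, and with the number taken modulo 22 all 6 have the remainder 13, as do 384 of the 8448. Hadha, Ganab and the Ctsd features also lie within 6 steps of 22 of each other. At position 13, 60 features were higher and 2 lower at an unadjusted p under 0.05, with a median difference of 0.0505, while at position 20 the counts were 2 and 66 and the median was -0.0800. In the run-adjusted fit the medians of the 22 positions lay between -0.0184 and 0.0166, and that of position 13 was 0.00715. Centred on the median of its position in each array, the 6 features differed by 0.20 to 0.381 and none passed (smallest limma adjusted p over all features 0.177). Centred on the 20 nearest features of the same position, with all arrays, none passed either (smallest limma adjusted p 0.198). In the run-adjusted fit with the same centring, a setting chosen after seeing the data, 5 features passed, 4 of them among the 6. These were Tbc1d8 (0.303), Ganab (0.247), Ctsd feature 12575 (0.279) and Hadha (0.222). Ctsd feature 12531 (0.189, limma adjusted p = 0.999) and C1qa (0.303, limma adjusted p = 0.0542) did not pass there. The part of position in these results was not tested further.

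Of the 14 neighbours 1 or 2 steps away other than Numa1, none passed. Numa1, which lies 1 step from Ganab, did not pass either, and differed by 0.284 with all arrays. Slc25a37, a mitochondrial iron carrier, lies between Hadha and Numa1 and differed by 0.068 (SE 0.0533), and Smchd1, a chromatin protein, lies between the Ctsd features and differed by 0.167 (SE 0.0760). Run-adjusted, they differed by 0.0242 and 0.0413. The 14 ranged from -0.009 to 0.512 (Senp2) with all arrays, a range that includes the called features. In the run-adjusted fit the 14 reached up to 0.119 (Dtd1), and the 6 called features had 0.254 to 0.393. Numa1 had 0.288 in that fit, within the range of the called features.

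**Figure D4:**
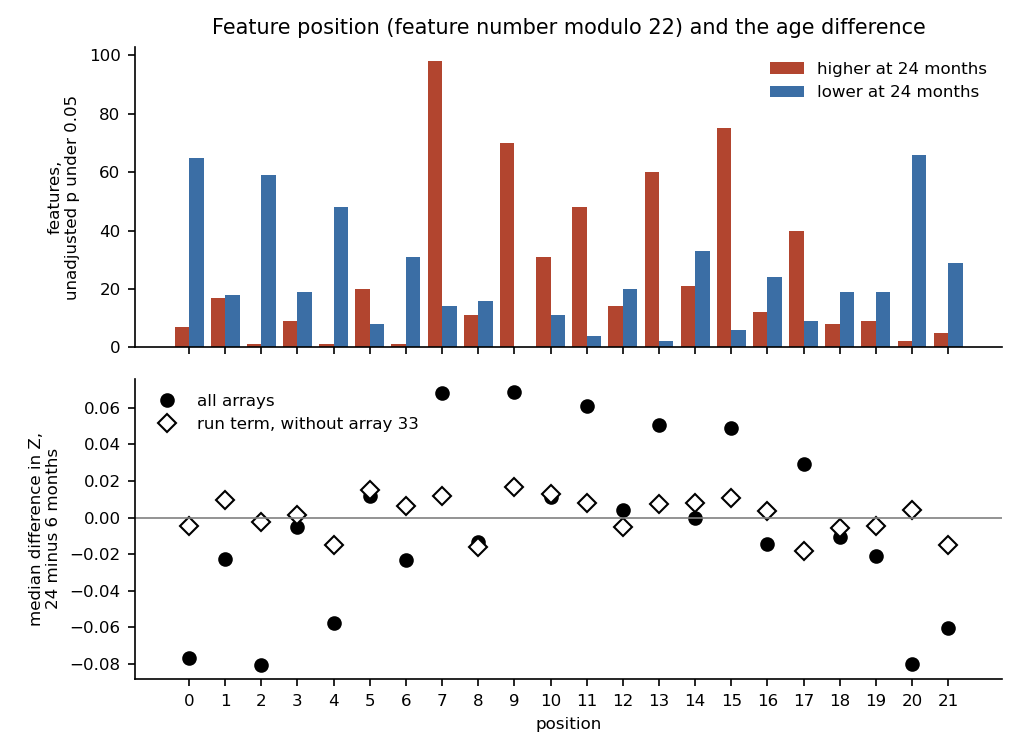
Above, the number of features, of 384, with an unadjusted p under 0.05 that were higher or lower at 24 than at 6 months (y axis) by position, the feature number modulo 22 (x axis), and below, the median difference in Z of each position with all arrays (filled) and in the run-adjusted fit (open). Position 13, which holds all 6 called features, has 60 higher and 2 lower, and the open medians lie between -0.0184 and 0.0166.

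The called features were also compared in mice outside the contrast. Residuals within diet, age, sex and run were taken over the 43 other mice, without arrays 31 and 32, and set against those of Ctsd feature 12575 for 8 features (permutation test, two-sided, 100000 draws, Benjamini-Hochberg over the 8). Ctsd feature 12531 had r = 0.820 (Spearman's rho 0.730), Ganab r = 0.799 (rho 0.723), Numa1 r = 0.653 (rho 0.625) and Hadha r = 0.634 (rho 0.547), the 4 highest of all features. Their permutation p for r was 1e-05, the smallest these draws can give, except 2e-05 for Hadha, and adjusted p was 4e-05 or less. C1qa had r = 0.534 (rho 0.347, adjusted permutation p = 4.32e-04 and 0.0275) and Tbc1d8 r = 0.514 (rho 0.343, adjusted permutation p = 7.73e-04 and 0.0275). Without the 2 mice farthest from the median of Ctsd, r was 0.716 for the other Ctsd feature, 0.709 for Ganab, 0.537 for Numa1, 0.443 for Hadha, 0.322 for Tbc1d8 and 0.266 for C1qa. Numa1, with r = 0.653 over all 43 mice, is a neighbour of called features, and the neighbours Slc25a37 and Smchd1 had r = 0.00681 and 0.332. The 4 features of highest r all lie within 6 steps of Ctsd feature 12575, as do Slc25a37 and Smchd1. The part of this closeness in the correlations was not tested. Over all features the median r was 0.00103, the 95th percentile 0.363 and the 99th percentile 0.469, so that without those 2 mice Tbc1d8 and C1qa lay below the 95th percentile. The 6 features share position 13 and the array of each mouse, and the part of either in these correlations was not tested.

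Among features with 1 gene symbol that did not pass, the smallest p-values with a higher score at 24 months belonged to Numa1, Ccdc91, Eif4g3, Rpl24, Mzt2, Opa1, Cd82, Rpsa, Apcdd1 and Hspa8 (limma adjusted p between 0.193 and 0.328). Numa1, which anchors microtubules at spindle poles, had scores of -0.77 to -0.37 at 24 months and -1.21 to -0.68 at 6 months, a difference of 0.284 (SE 0.0719), with 8 of 10 older mice above all younger ones. It also lies at position 13, and its other features differed by 0.004 and -0.071. Cd82, a tetraspanin of the cell surface, had scores of 0.59 to 0.85 at 24 months and 0.50 to 0.65 at 6 months, a difference of 0.165 (0.0678 run-adjusted). Hspa8, the constitutive cytosolic chaperone, had 2.39 to 2.66 and 1.5 to 2.59, a difference of 0.235, and its other feature differed by 0.044. Opa1, a GTPase that fuses the inner mitochondrial membrane, differed by 0.202, and its other feature by -0.008. The other feature of Cd82 differed by 0.618 and those of Rpsa by 0.425, 0.155 and 0.131, in the direction of the first. The run-adjusted values of those other Rpsa features were 0.1001, 0.038 and 0.00205. Every Rpsa feature lies at position 7, where 98 features were higher and 14 lower at an unadjusted p under 0.05. The part of position in the shared direction of Rpsa was not tested.

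On the lower side, again among features with 1 symbol, the smallest p-values belonged to Dlat, Mob4, Ddx27, Ubxn4, Ppp1r3b, Mtap, Hspa4l, Spred1, Map3k12 and Gm16523 (limma adjusted p between 0.193 and 0.328). Dlat, the acetyltransferase subunit of pyruvate dehydrogenase, had scores of -0.99 to -0.47 (median -0.70) at 24 months and -0.93 to -0.11 (median -0.37) at 6 months. The difference was -0.282 (SE 0.0713), all 10 older mice lay below the younger mean, and the other Dlat feature differed by -0.267. The run-adjusted values were -0.157 and -0.139. Ubxn4, which takes part in degradation of proteins of the endoplasmic reticulum, had 0.29 to 0.65 and 0.48 to 0.73, with 8 of 10 older mice below all younger ones, and a difference of -0.147 (SE 0.0445). Map3k12, a kinase of the axon injury response, had -1.85 to -0.73 and -1.30 to -0.53, a difference of -0.410 (SE 0.138), which was -0.129 run-adjusted, and its other feature differed by 0.351. All 20 features kept their direction in the run-adjusted fit.

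Gene lists are described by counts, beside all 8448 features, of which 4148 were higher, 4274 lower and 26 equal with a median difference of -0.002. At an unadjusted p under 0.05 (limma), 6.63% of all features were higher and 6.16% lower. In the run-adjusted fit these shares were 1.47% and 0.923%. Of 14 features of microglia and macrophage genes (13 genes), 11 were higher and 3 lower with a median of 0.111. The 3 called features were those of Ctsd and C1qa, 7 of the 14 had an unadjusted p under 0.05 upward and 1 downward, the phagocytic receptor kinase Axl (-0.127). C1qb (0.165), Cd9 (0.145), Grn (0.123) and Cd63 (0.12) were among those upward, and the Fc receptor chain Fcer1g (-0.033) and Cd74 (-0.031) were not. Of those upward, the features of Ctsd, C1qa and Cd9 lie at position 13, where 60 features were higher and 2 lower at that level. C1qb lies at position 15 (75 and 6), Grn at position 20 (2 and 66) and Cd63 at position 8 (11 and 16). The part of position in these values was not tested. Of the 14, 11 were higher in the run-adjusted fit, 5 at an unadjusted p under 0.05 and 0 lower at that level, with a median of 0.0747 against 0.00206 over all features. The mean score of the list was -0.025 to 0.114 (median 0.0346) at 24 months and -0.504 to -0.0121 (median -0.0568) at 6 months, or from -0.0993 without array 33. The lists were chosen with earlier results known, and the list and the calls share Ctsd and C1qa. The lists of other glia stood as follows. Of 9 features of astrocyte genes, 8 were higher and 1 lower, 3 at an unadjusted p under 0.05 upward (Cst3, Gja1 and Id3), with a median of 0.126, and 0.0166 run-adjusted. Their mean score was 0.0256 to 0.204 (median 0.168) at 24 months and -0.257 to 0.19 (median 0.065) at 6 months, or from 0.00889 without array 33. All 4 features of oligodendrocyte and myelin genes were higher (median 0.116, and 0.0344 run-adjusted), of which Cd9 is in the microglia list too. No feature of these 2 lists passed, and their part in the microglial values was not tested.

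Among the lysosomal lists, Ctsd alone passed. Of 17 features of hydrolases and their cofactors (13 genes), 11 were higher and 6 lower with a median of 0.068, and 0.0170 run-adjusted. The cholesterol carrier Npc2 differed by 0.168 at the feature of smallest p (-0.000636 run-adjusted) and by 0.147 at its other feature, and the receptor Scarb2 by -0.311 (-0.0490). Of 17 features of lysosomal membrane proteins and the proton pump, 8 were higher and 9 lower (median -0.005), Cd63 having the smallest p. Cst3, cystatin C, an inhibitor of cysteine cathepsins that astrocytes secrete, had scores of 0.56 to 1.04 at 24 months and -0.90 to 0.67 at 6 months, a difference of 0.309 (SE 0.109, limma adjusted p = 0.328), and 0.219 run-adjusted. The other 3 features of its list of protease inhibitors had values below 0 (Stfa1 -0.063, Serpinb6a -0.083 and -0.073), and none passed.

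In the lists around Hadha, Ganab and Tbc1d8, the called gene alone passed. Of 12 features of fatty acid oxidation, 7 were higher, 4 lower and 1 equal, with a median of 0.0335, the next after Hadha by p being Hsd17b10 with 0.239 (0.0443 run-adjusted). Of 20 features of folding and trimming of glycoproteins, 12 were higher and 8 lower (median 0.024). Of 13 features of Rab GTPase activating proteins, 5 were higher and 8 lower (median -0.009), Tbc1d1 being next after Tbc1d8 with 0.301 (0.0401 run-adjusted). Of 24 features of Rab GTPases themselves, 7 were higher and 17 lower (median -0.0385), and none passed.

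Of 93 features of the cytosolic ribosome (53 genes), 88 were higher and 5 lower with a median of 0.088, 22 at an unadjusted p under 0.05 upward and 0 downward, and none passed. Rpl38 (0.205), Rps28 (0.222) and Rpl24 (0.211) had the smallest p. The median was 0.0200 without array 33, 0.0537 in the run-adjusted fit (84 of 93 higher), and 0.0588 within the first run. The mean ribosomal score ran from 0.486 to 0.627 (median 0.519) at 24 months and from -0.146 to 0.549 (median 0.501) at 6 months, or from 0.472 without array 33, so that the ages overlapped. Of 51 features of oxidative phosphorylation, 43 were higher and 8 lower (median 0.057), among them Ndufv1 (0.208) and Atp5b (0.247), whereas without array 33 the median was -0.00525. None passed.

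Markers of other cells were described in the same way. The 19 features of blood genes had a median difference of 0.086, and -0.0373 without array 33, with mean scores of 0.405 to 1.07 at 24 months and -0.134 to 0.901 at 6 months. The 4 features of skeletal muscle genes were all lower (median -0.060), and Pmp22, the 1 Schwann cell marker measured, differed by -0.092. The 31 features of meninges and matrix had a median of 0.030, and -0.0220 without array 33. The 9 features of neuronal genes had a median of 0.015, with Slc17a6, a glutamate transporter of excitatory neurons, at -0.263 (limma adjusted p = 0.406, and -0.00188 run-adjusted). No feature of these lists passed, and their part in the 6 calls was not tested.

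**Figure D5:**
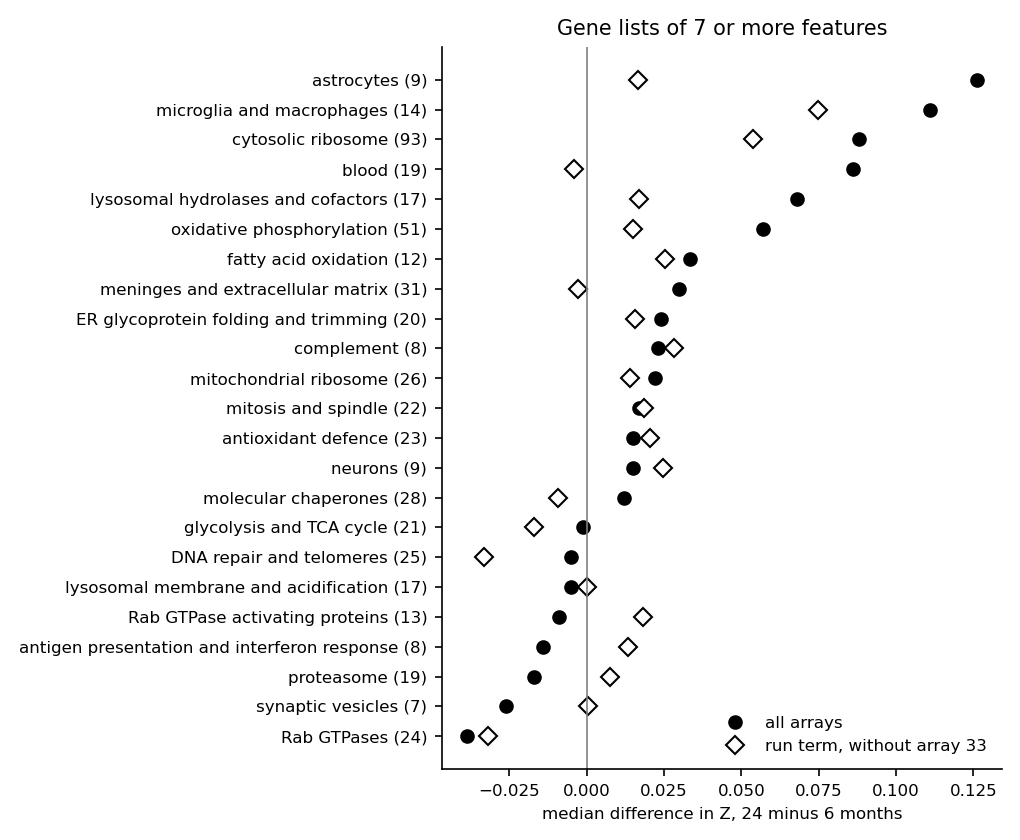
Median difference in Z, 24 minus 6 months (x axis), over the features of the 23 gene lists with 7 or more features (rows, number of features in brackets), with all arrays (filled) and in the run-adjusted fit (open). The median is 0.111 (filled) and 0.0747 (open) for microglia and macrophages, 0.088 and 0.0537 for the cytosolic ribosome, 0.126 and 0.0166 for astrocytes, and 0.086 and -0.00399 for blood genes.

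The spread between mice depended on array 33. Over all features the median SD was 0.124 at 24 months and 0.196 at 6 months, and 26.3% of features had the larger SD at 24 months. Without array 33 the medians were 0.124 at 24 months and 0.105 at 6 months, and 69.6% of features were more variable at 24 months. Within the first run they were 0.115 (4 mice) and 0.0944 (8 mice), with 60.8% more variable at 24 months. These shares are descriptions, since features of 1 array are not independent.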

How the data were processed

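The deposited value is a Z score, made by the authors within an array from ArrayPro intensities of imaging screens and given to 2 decimals for 8448 features of 65 arrays with no missing value. The log base and the background treatment are not given in the sources used here. Such scores hold no read depth, so precision is set by how many mice there are. Groups came from the diet and age labels. Nothing shows more than 1 array per mouse, and p-values measure the spread between mice. Features were named from the platform annotation (4875 with 1 symbol, 224 with several, 3349 with none) and updated through RefSeq. Several clones of a gene were tested separately.

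The scores were fitted in limma 3.58.1 (R 4.3.3) with 14 means (age class, diet and sex) over the 65 arrays, the sexes weighted equally, and p-values were adjusted by Benjamini-Hochberg over 8448 features (threshold 0.05). The median residual SD was 0.149 on 51 degrees of freedom. In simulated data of this comparison over 8448 features, 50 features were changed at each size. Of differences of 0.15, 14% were recovered, of 0.3 78% and of 0.45 92%, with 9 false calls. The noise was normal and independent, with no effect of run or position and no outlying array. An adjusted threshold is easier to pass with so many changed features, so these shares do not give the recovery in the real data. Alternatives changed run, arrays, position, normalization and test. The members, gene lists and tests were chosen with earlier results of these data known. Named were the called features, the 10 others with 1 symbol and the smallest p in each direction, up to 4 per gene list, other features of these genes and neighbours of called features.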

Additional observations from a re-analysis of the deposited data

Results flagged for a closer look

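In 17 of 76 groups of 10 mice (38 features at 2 ages), 1 mouse lay far from the others by the ratio of its gap to the group's range (Dixon's ratio above 0.466), and chance gives about 1 in 20 groups. Of the 17, 16 were groups of 6 months and 13 of these had array 33 as the distant mouse. It was the lowest for Tbc1d8 (-0.58), Hadha (-1.95), Ganab (-0.71), Ctsd (-1.16 at feature 12531 and -1.17 at feature 12575), C1qa (-1.33), Rpsa (-0.18), Cst3 (-0.90), Rps28 (-1.09) and Ndufv1 (-1.03), and the highest for Mob4 (0.02), Ddx27 (0.46) and Mtap (0.30). Array 34, a female of 6 months and the other mouse of that age in the second run, was the lowest for Map3k12 (-1.30) and the highest for Hsd17b10 (1.19) and Tbc1d1 (0.76). The 1 group of 24 months was Ctsd feature 12575, where a female had 0.68 against 0.47 for the next mouse.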

How the results depend on the processing

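Tbc1d8 and Ganab passed in all 20 fits that left out 1 mouse, Ctsd feature 12575 in 10, Hadha in 8, Ctsd feature 12531 in 7 and C1qa in 6, the number of calls ranging from 2 to 8. It was 2 without replicate 2, 4 or 8 of 6 months or replicate 5, 6, 7, 8, 9 or 10 of 24 months, and 3 without replicate 3 or 4 of 24 months. A lower feature passed without replicate 1 or 2 of 24 months or replicate 3, 6 or 7 of 6 months. Rounds are successive blocks of 14 array numbers, cut for this comparison and not named by the labels. The 6 calls compare with 3 in the first run alone, 4784 in the second run alone (2193 of them lower, resting on arrays 33 and 34 as the mice of 6 months), 0 in rounds 1, 3 and 4, 93 with the round of 14 arrays as a fixed effect (10 of them lower, and 8 calls when array 33 was left out too), 1 over the 20 AL arrays alone (Ganab), 0 among features with a mean Z above 0, 1829 with array weights (858 lower), 0 centred by position, 0 centred on neighbours, 3 without array 27, and 0 in males and 0 in females. The first steps of the selection in the methods were run as a mean Z of both groups above 0, a z-ratio of at least 1.5 in either direction and an unadjusted p under 0.05. They gave 138 features, 110 higher and 28 lower, with 1 of the 6 among them. With the mean Z over both groups above 0, nearer to the wording of the methods, they gave 160 (127 higher, 33 lower, 2 of the 6). The ANOVA over age, sex and diet that follows in the methods was not run. The other alternatives gave 4 to 7 calls. The causes of these shifts were not tested. Fits with the round and without array 33, and with neighbour centring, run and without array 33, and the selection by the mean over both groups, were chosen after seeing the data.

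None of the 6 called features changed sign under any alternative. Of the other named features, centring on neighbours gave -0.0015 for Rpsa, 0.0080 for Hspa4l (0.000282 with run and without array 33) and -0.0115 for Npc2 (-0.0460 with run and without array 33), and Npc2 had -0.000636 with run and without array 33 and -0.0638 in the first run. C1qc had -0.0090 centred by position and -0.0133 with round and run and without array 33, and Scarb2 had 0.00625 in the first run. No difference between sexes or diets passed in any of the 4 alternatives run. No paired analysis was possible because replicate numbers follow accession order and pair no mice, and the fits with the round of array numbers stand in its place as a block.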
